A study of Mus musculus with 2 samples.

Results

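The Dlk1 to Meg3 imprinted domain of mouse chromosome 12 was described from CTCF ChIP-seq peak lists of embryonic stem cells. It was taken as the genes Begain, Dlk1, Meg3, Rtl1, Rian, Mirg and Dio3, with 200 kb on either side of the outermost of these 7 genes. The window runs from 108832181 to 110481097 on chromosome 12 (mm10), 1649 kb in all. With each peak placed by its summit, the window held 39 of the 43344 conservative peaks that the authors list for the autosomes and X. The series has a single group of 2 biological replicates, CTCF ChIP of the line E14TG2a.4, embryonic stem cells of strain 129/Ola that are male and carry the age label 3.5 day. There is no second condition, so the comparisons are between genes and intervals of the domain, between the domain and the whole set, and between the replicates. Read counts are not part of the lists, which leaves library depth unknown, and neither are RNA levels, so the labelled cell type was not checked against markers.

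CTCF is a zinc-finger protein that binds insulators and chromatin loop anchors, and at some imprinted loci methylation of CpG dinucleotides in its binding site keeps it off one parental chromosome. In this domain, Dlk1, Rtl1 and Dio3 code for proteins and are expressed mainly from the paternal chromosome, while the long noncoding RNAs Meg3, Rian and Mirg come from the maternal one. The control region lies between Dlk1 and Meg3 and is methylated on the paternal chromosome. The peak lists do not separate the parental chromosomes.

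Between the start of Dlk1 and the end of Mirg, the conservative set had its peaks in Meg3 and Rian only, and a further peak lay just past Mirg. Their motif sites are shown first because these peaks lie in or next to the imprinted noncoding genes. A genome was used for mm9 only, so the sites were read at the matching peaks of the mm9 pooled list, from the reference sequence and not from 129/Ola DNA. Each line gives 101 bases, 5′ to 3′ on the strand of the site, with the 19-bp match to the CTCF motif in capitals. The first is on the plus strand at chr12:110780336-110780436, the second on the minus strand at chr12:110781205-110781305, the third on the plus strand at chr12:110850938-110851038 and the fourth on the minus strand at chr12:110988339-110988439 (all mm9).
Meg3, upstream site: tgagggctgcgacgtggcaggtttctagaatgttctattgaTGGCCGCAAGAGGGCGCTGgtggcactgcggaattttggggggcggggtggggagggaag
Meg3, downstream site: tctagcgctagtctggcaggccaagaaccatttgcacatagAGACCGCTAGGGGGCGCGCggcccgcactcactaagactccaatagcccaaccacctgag
Rian: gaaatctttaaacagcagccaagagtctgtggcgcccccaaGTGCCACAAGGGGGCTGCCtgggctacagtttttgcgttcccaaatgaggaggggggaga
Past the end of Mirg: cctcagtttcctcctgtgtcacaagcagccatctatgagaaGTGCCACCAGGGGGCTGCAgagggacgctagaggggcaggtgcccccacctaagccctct

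Across the window, peaks stood 2.37 per 100 kb, against 1.39 per 100 kb on chromosome 12 as a whole. Over the autosomes this density ran from 1.27 to 2.66, with a median of 1.72. The window figure includes the flanks, and 21 of the 39 peaks lay from the start of Begain to the end of Dio3. The peaks were not evenly spread. The 200 kb after Dio3 held 13 of them, or 6.5 per 100 kb, whereas the 297 kb from the start of Dlk1 to the end of Mirg held 3, or 1.01 per 100 kb. The remaining peaks lay before Begain (5), inside Begain (1), between Begain and Dlk1 (5) and between Mirg and Dio3 (12). No summit lay inside Dlk1, Rtl1, Mirg or Dio3, between Dlk1 and Meg3, or between Rian and Mirg.

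Long stretches without a peak separated these clusters. The longest, 270.4 kb between the Begain peak and the next peak towards Dlk1, was exceeded by 3.77% of all gaps between neighbouring peaks in the set. The next longest, 198.7 kb, began just past Mirg, and 5.82% of all gaps were longer. The gap from the Rian peak to the one past Mirg was 137.4 kb, with 9.47% of gaps longer. These gaps were picked as the longest of the window, so a place among the longer gaps of the set follows from the choice. The shares do not show that gaps in the window were unusually long. Most gaps were short, with a median of 16.6 kb in the window against 21.0 kb over the set.

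The domain's peaks were of about the same strength as the rest. The pooled signal, a value per peak on the authors' own scale, had a median of 72.2 in the window, against 77.2 over the whole set and 73.2 on chromosome 12. The domain peaks ran from 12.3 to 171.3, and 17 of the 39 were at or above the median of the set. The 3 peaks from Dlk1 to Mirg had signals of 35.1 to 79.4, and 16 of the other 36 domain peaks exceeded 79.4.

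**Figure D1:**
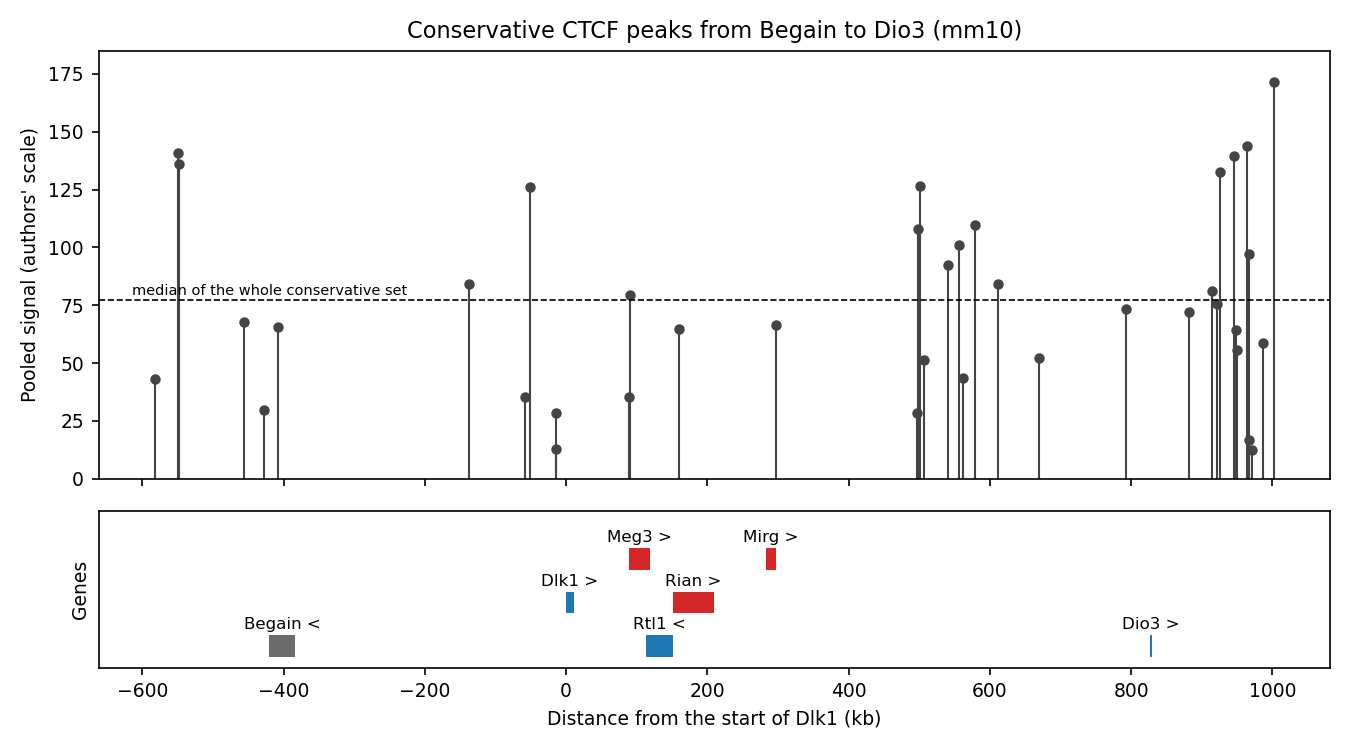
Each stem is a conservative CTCF peak, placed by the distance of its summit from the start of Dlk1 in kb (mm10), with the pooled signal on the authors' scale as its height; the dashed line is the median of the whole set, 77.2. The lower panel shows the member genes with their direction, blue for the paternally expressed coding genes, red for the maternally expressed noncoding genes and grey for Begain. The 3 peaks from Dlk1 to Mirg reach at most 79.4, while the cluster after Dio3 holds 13 peaks of up to 171.3.

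Dlk1 encodes a membrane-bound and secreted relative of the Notch ligands. Its gene (chr12:109452485-109463336, plus strand) contained no conservative peak. The nearest summit to its start lay 14787 bp upstream and belonged to a weak peak with a pooled signal of 12.6 (chr12:109437878-109438193), which overlapped a neighbour with a signal of 28.6. That weak peak had an entry of signal 14.2 in replicate 1, while in replicate 2 the nearest entry was 228 bp away. Further upstream stood one of the strong peaks of the window (chr12:109401286-109401482), with a pooled signal of 126.2. Signals there were 72.2 in replicate 1 and 56.7 in replicate 2. Divided by each replicate's median over the conservative peaks matched in both, this made a relative signal of 1.60 ± 0.191 (SD, n = 2), so this site was above the typical site in both replicates.

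The interval between the end of Dlk1 and the start of Meg3, which holds the control region, had no conservative peak in its 77.7 kb. The authors' pooled list, which mixes peaks with background down to weak entries, had 10 entries there. None was in the conservative set, as follows from the interval having no conservative peak, and none was in the optimal set. Of all pooled entries, 14.5% were in the conservative set and 14.8% in the optimal set. With only 10 entries, a count of none is close to these shares, so it does not set the interval apart. The signals of the 10 entries ran from 7.84 to 16.9, with a median of 8.68. The median over the whole list was 9.57, and 2 of the 10 exceeded it. The conservative set itself reached this low only rarely, with 2.61% of its peaks below 16.9.

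The few entries between Dlk1 and Meg3 did not recur between replicates. Replicate 1 listed 5 entries, with signals of 5.80 to 11.4, and replicate 2 listed 4, with signals of 4.86 to 11.4. Of the 10 pooled entries, 2 had an entry of replicate 1 within 100 bp, 3 had one of replicate 2, none had both and 5 had neither. The same shares over all pooled entries are not given here, so these counts do not set the interval apart. The strongest (chr12:109500109-109500424), 40.7 kb before Meg3 and inside the noncoding gene Gm34081, had a pooled signal of 16.9. Replicate 2 gave it 11.4, and replicate 1 had no entry within 100 bp. Among the 43344 strongest entries of replicate 2 alone, it was the 1 entry between the genes, and replicate 1 alone had 0. This contrast rests on the cut. The entry ranked 42892 in replicate 2, and the strongest entry of replicate 1 in the interval, also of signal 11.4, ranked 45199. The second strongest pooled entry, 5.42 kb past the end of Dlk1 (chr12:109468596-109468911), had a pooled signal of 15.2. It had 11.4 in replicate 1 and no entry within 100 bp in replicate 2. The lists stop at a minimum signal, so an entry missing from a list does not show that the site was free of CTCF.

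**Figure D2:**
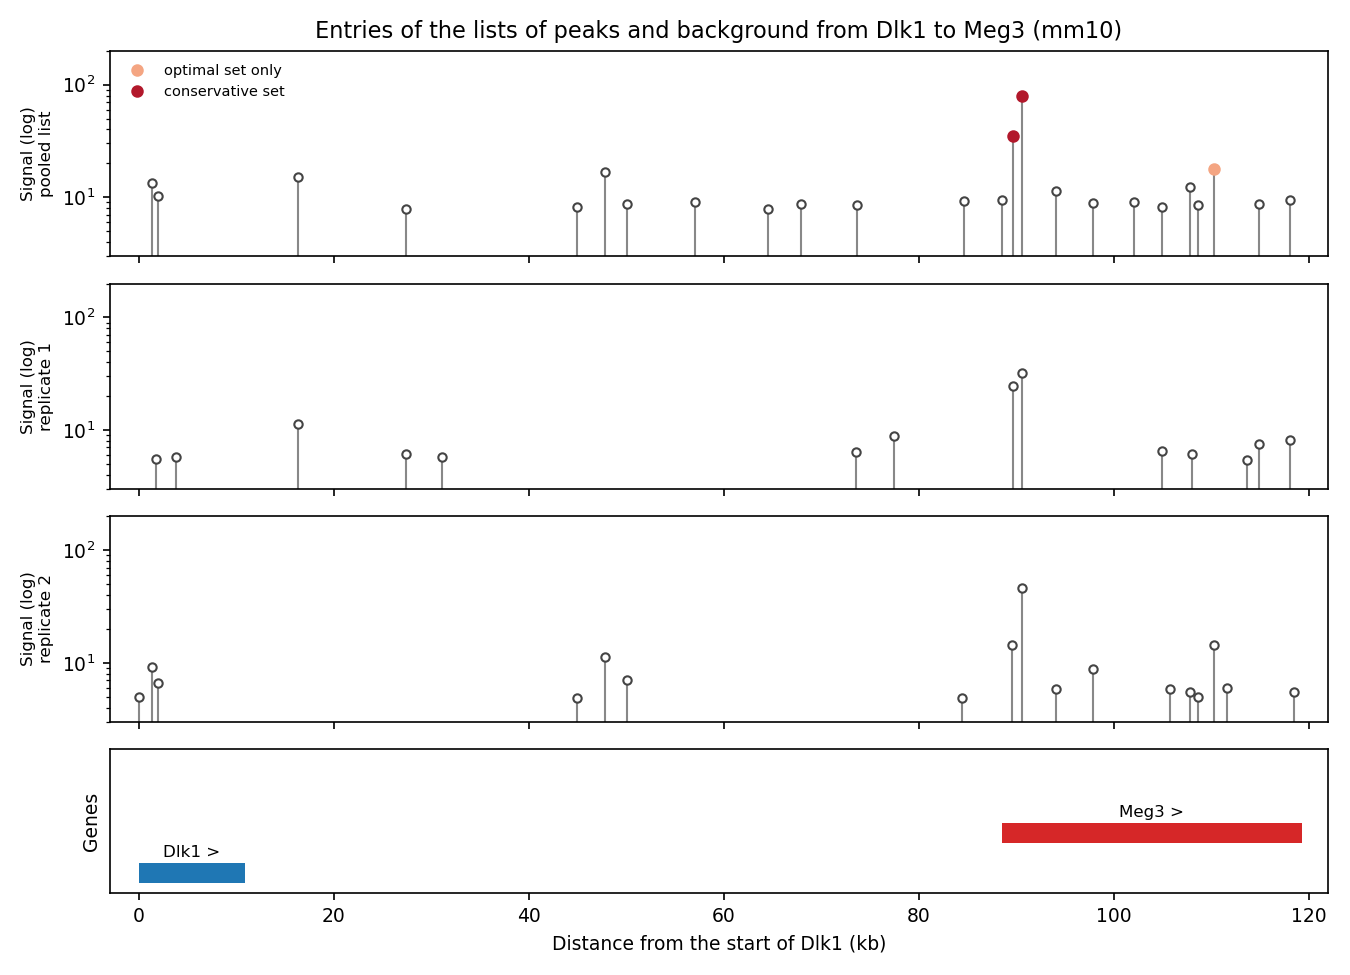
Every entry of the pooled list and of each replicate's list from the start of Dlk1 to the end of Meg3 is drawn by its distance from the start of Dlk1 in kb and its signal on a log axis (mm10). Filled points in the pooled panel are in the conservative set or in the optimal set alone, and open points are in neither. The 10 pooled entries between the genes reach at most 16.9, while the conservative peaks inside Meg3 stand at 35.1 and 79.4.

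Meg3, a long noncoding RNA gene (chr12:109540996-109571729, plus strand), was the only member with more than 1 conservative peak. Its stronger peak (chr12:109543017-109543099), with its summit 2069 bp after the gene's start, had a pooled signal of 79.4. Replicate 1 gave it 32.0 and replicate 2 gave it 45.9, a relative signal of 0.978 ± 0.295 (SD, n = 2). This placed it close to the typical site of the set.

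The weaker peak of Meg3 (chr12:109541995-109542310) lay nearer to the start, with its summit 1157 bp downstream and a pooled signal of 35.1. The replicate 1 entry, of signal 24.4, had its summit 4 bp away. The nearest entry of replicate 2, of signal 14.5, was 104 bp away, just outside the 100 bp that counted as a match, so no mean is given. Another peak, further into the gene, (chr12:109562562-109562877) was in the optimal set only, with a pooled signal of 17.7 and an entry of 14.5 in replicate 2.

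The mm9 lists, called separately by the authors, held the same order of sites in Meg3. The upstream peak (chr12:110779909-110780763, mm9) had a fold enrichment of 6.19 in the pooled list and 7.39 in replicate 1, and no call in replicate 2. The downstream peak (chr12:110780828-110781690, mm9) had 11.11 in the pooled list, with 8.18 in replicate 1 and 13.14 in replicate 2. In both builds the upstream site was therefore the weaker, and the one less well found in replicate 2.

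Both Meg3 peaks carried a match to the CTCF motif, which was scored in bits against a matrix learned from other chromosomes, with a threshold of 13.1 bits. The upstream site scored 20.0 bits and the downstream site 15.7 bits, on either side of the 17.5-bit median of the window's motif-bearing peaks, so the better match lay under the weaker peak. They were 869 bp apart in an annotated exon of Meg3 (GENCODE vM1, mm9), 1175 and 2044 bp after its start. The upstream site was on the plus strand and the downstream site on the minus strand, so they faced each other. In the sequences printed above, the upstream site contains 2 CpG dinucleotides and the downstream site 3.

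CpG content of the sites was counted across the domain because methylation of the site can affect CTCF. Of the 28 mm9 peaks of the window with a motif, 16 had a CpG inside the site, or 57.1%, against 40.5% of the motif-bearing peaks on even chromosomes and X. With so few sites and no interval computed, this difference is a description. By segment, the counts were 2 of 7 before Dlk1 and 2 of 3 from the start of Dlk1 to the end of Mirg. They were 6 of 9 both between Mirg and Dio3 and after Dio3, so most lay outside the imprinted noncoding genes. The Meg3 pair were 2 of the 4 window sites with 2 or more, a number that 5.97% of that background reached. The other 2 lay in Wdr25 and after Dio3. The lists hold no methylation, so the state of these CpG dinucleotides was not analysed here.

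Rian, the noncoding host of a cluster of box C/D small nucleolar RNAs (chr12:109603945-109661716, plus strand), had 1 conservative peak (chr12:109612689-109612798), 8824 bp after its start. Its pooled signal was 64.8, with 27.8 in replicate 1 and 34.6 in replicate 2, a relative signal of 0.780 ± 0.159 (SD, n = 2). On mm9 the peak lay in an intron of Rian, with a fold enrichment of 9.57 in the pooled list, 10.03 in replicate 1 and 10.28 in replicate 2. Its motif, of 15.8 bits on the plus strand, held no CpG.

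Mirg, the noncoding host of a large microRNA cluster (chr12:109734981-109749458, plus strand), had no summit inside, but a peak (chr12:109750022-109750337) lay 722 bp past its end. The pooled signal there was 66.5, with 27.4 in replicate 1 and 41.8 in replicate 2, a relative signal of 0.868 ± 0.298 (SD, n = 2). Its mm9 counterpart had a fold enrichment of 9.99 in the pooled list, 8.98 in replicate 1 and 12.85 in replicate 2. The motif, of 17.2 bits, was on the minus strand and so faced the Rian site on the plus strand.

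The small RNA genes of the domain fell almost wholly between these peaks. The annotation lists 62 microRNA and 19 small nucleolar RNA genes in the window. None contained a conservative summit, but they are so short that this count says nothing about them. Between the Rian peak and the peak past Mirg lay 41 of the microRNA genes and all 19 small nucleolar RNA genes. Another 19 microRNA genes lay between the stronger Meg3 peak and the Rian peak.

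Rtl1, a coding gene derived from a retrotransposon and read on the opposite strand to Meg3 and Rian (chr12:109564900-109604418, minus strand), had no conservative or optimal peak. Its strongest pooled entry on mm10 had a signal of 15.9. The mm9 list did call a peak in an exon of Rtl1 (chr12:110832576-110833680, mm9), with a fold enrichment of 7.31 in the pooled list, 6.60 in replicate 1 and 8.85 in replicate 2. Its best motif match was 10.95 bits, below the threshold, so this call was the only one between Dlk1 and the end of Mirg on mm9 without the motif. The nearest conservative peak to the start of Rtl1 was the one in Rian, 8351 bp upstream.

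Dio3 encodes the deiodinase that inactivates thyroid hormone (chr12:110279230-110281097, plus strand). It stood in a stretch without peaks, the nearest summits lying 33590 bp before its start and 53746 bp past its end. The peak before it (chr12:110245482-110245797) had a pooled signal of 73.5, with 46.4 in replicate 1 and 26.0 in replicate 2. The peak after it (chr12:110334685-110335000) had 72.2, with 22.9 in replicate 1 and 46.3 in replicate 2. The peaks on either side of Dio3 thus had nearly the same pooled signal and differed between the replicates in opposite directions.

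Some stronger sites lay beyond the long gap that follows Mirg and after Dio3. Between Mirg and Dio3 the 12 peaks, counting the one just past Mirg before the gap, had signals of 28.4 to 126.7. Their median was 78.8, near the 79.4 of the stronger Meg3 peak, so not all of them were stronger. The strongest of them (chr12:109953029-109953203) had 63.8 in replicate 1 and 61.7 in replicate 2, a relative signal of 1.56 ± 0.0429 (SD, n = 2). A peak inside the noncoding gene Gm40574 (chr12:110031436-110031565), with a pooled signal of 109.5, had a relative signal of 1.35 ± 0.00336 (SD, n = 2), and a peak at chr12:109950754-109950917, with 108.0, had 1.35 ± 0.209 (SD, n = 2). These sites were stronger than those inside the imprinted noncoding genes in both replicates.

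After Dio3 the 13 peaks ran from 12.3 to 171.3. The strongest of the window lay in its flank, 173269 bp past Dio3, in Ppp2r5c (chr12:110454272-110454469). This neighbouring gene, not a member, encodes a regulatory subunit of protein phosphatase 2A. The peak had signals of 75.2 in replicate 1 and 95.0 in replicate 2. It ranked 3946 in the whole set, within the top 9.10%, and its relative signal was 2.13 ± 0.457 (SD, n = 2). A peak in the noncoding gene Gm40577 (chr12:110416316-110416515) followed with a pooled signal of 143.8, then peaks of 139.5 (chr12:110398542-110398695) and 132.4 (chr12:110377847-110378020). Their relative signals were 1.79 ± 0.121, 1.74 ± 0.464 and 1.65 ± 0.189 (SD, n = 2 each), all above 1 in both replicates.

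Begain, which encodes a synaptic scaffold-associated protein and lies at the proximal edge (chr12:109032181-109068242, minus strand), had 1 conservative peak (chr12:109044487-109044802), 8453 bp downstream of the nearest of its 5 annotated starts. Among the domain peaks matched in both replicates, it was the one on which they differed most. Its pooled signal was 65.7, with 17.8 in replicate 1 and 49.3 in replicate 2. The relative signals were 0.427 and 1.27, a log2 ratio of replicate 1 over replicate 2 of -1.58. The mm9 lists differed the same way, with a fold enrichment of 6.86 in replicate 1 and 15.71 in replicate 2.

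On either side of Begain the peaks were of unlike strength. The nearest one beyond its 3′ end (chr12:109023836-109024151), 8187 bp away in the neighbouring gene Wdr25, had a pooled signal of 29.7, and the nearest summit of the optimal set was 20651 bp from it. Towards Dlk1 the nearest (chr12:109314920-109315235) was 246836 bp away, with 84.1 as its pooled signal and 1.05 ± 0.150 as its relative signal (SD, n = 2). Wdr25 also held a pair of strong peaks within 1 kb of each other, with pooled signals of 140.8 (chr12:108903001-108903167) and 135.8 (chr12:108903966-108904109). Their relative signals were 1.76 ± 0.0568 and 1.63 ± 0.316 (SD, n = 2 each).

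None of the 7 members had a conservative summit within 1000 bp of an annotated start, where 9.35% of 26794 genes had one. Within 2000 bp there was 1, the Meg3 peak, against 14.9% of genes. With 7 members a count of 0 or 1 is close to these shares. The distances to the nearest start otherwise ran from 8351 bp for Rtl1 to 33590 bp for Dio3.

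The replicates were compared at the 35 domain peaks with a summit within 100 bp in both. Their relative signals differed by more than 1.5-fold at 9, or 25.7% (exact 95% interval 12.5 to 43.3), against 17.4% of the 41382 such peaks in the whole set, which lies within the interval. The log2 ratio had an SD of 0.49 in the domain and 0.44 over the set. Of the 39 peaks, 37 had an optimal peak with the same start and end, as did 93.2% of the conservative set. For the other 2 the nearest optimal summit was 20651 and 5091 bp away. The replicates come from separate biosamples of the same line, per the labels.

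Relative signal was higher in replicate 2 at 26 of the 35 matched domain peaks, or 74.3% (exact 95% interval 56.7 to 87.5), against 51.6% of matched peaks over the set. Without division by the replicate's median, replicate 2 was higher at 18 of the 35, or 51.4%, against 41% over the set, so the count depends on the scaling. This comparison was added after the values were seen.

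**Figure D3:**
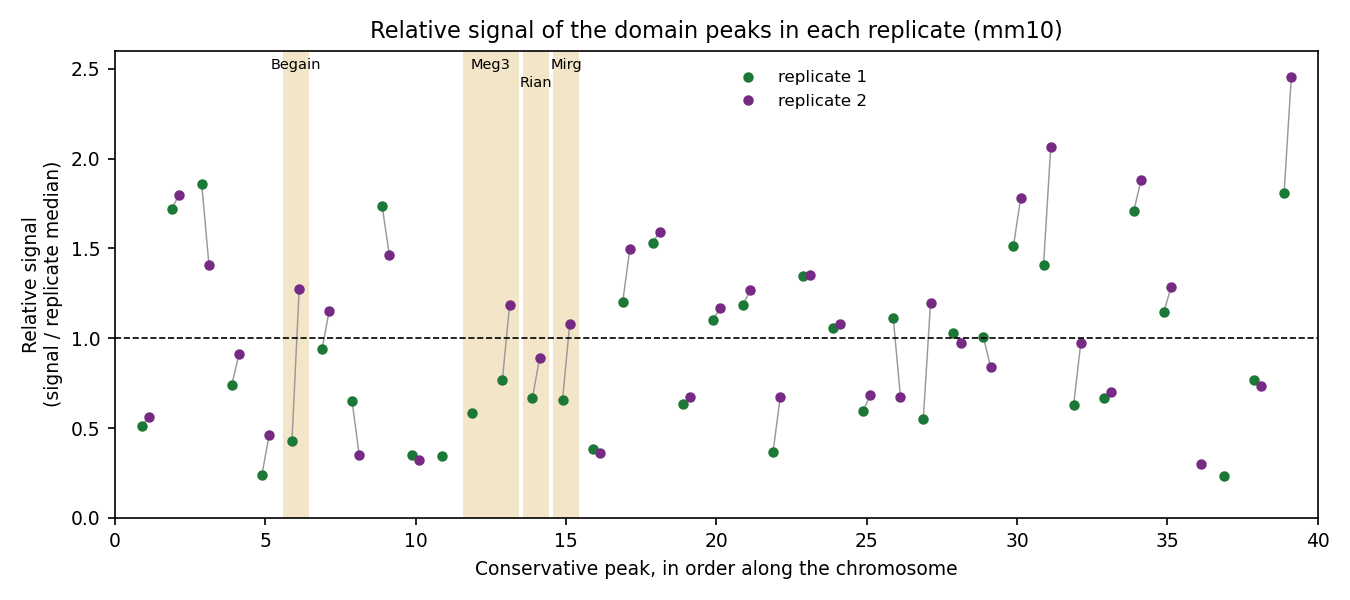
Relative signal (signal over the median of matched conservative peaks in that replicate) is drawn for each domain peak in order along the chromosome, green for replicate 1 and purple for replicate 2, with a line joining matched values and a dashed line at 1. Shading marks the peaks in Begain, Meg3 and Rian and the peak past Mirg. The widest difference is at Begain, with 0.427 in replicate 1 and 1.27 in replicate 2.

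The orientation of the motif was read at the 34 pooled mm9 peaks of the window. Within 50 bp of the peak's midpoint, 20 had the motif, or 58.8% (exact 95% interval 40.7 to 75.4), against 55.4% of peaks on even chromosomes and X. Anywhere in the peak, 28 had it, or 82.4%, against 82.2% of that background and 10.4% of flanking stretches of the same length. Of these 28 sites, 14 were on each strand. Neighbouring sites faced each other in 8 pairs, pointed away from each other in 9 and ran in the same direction in 10. The strongest mm9 peak, of 19.97-fold in an intron of Ppp2r5c, and a peak of 16.74-fold upstream of Dlk1 were among the 6 with no match at the threshold.

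**Figure D4:**
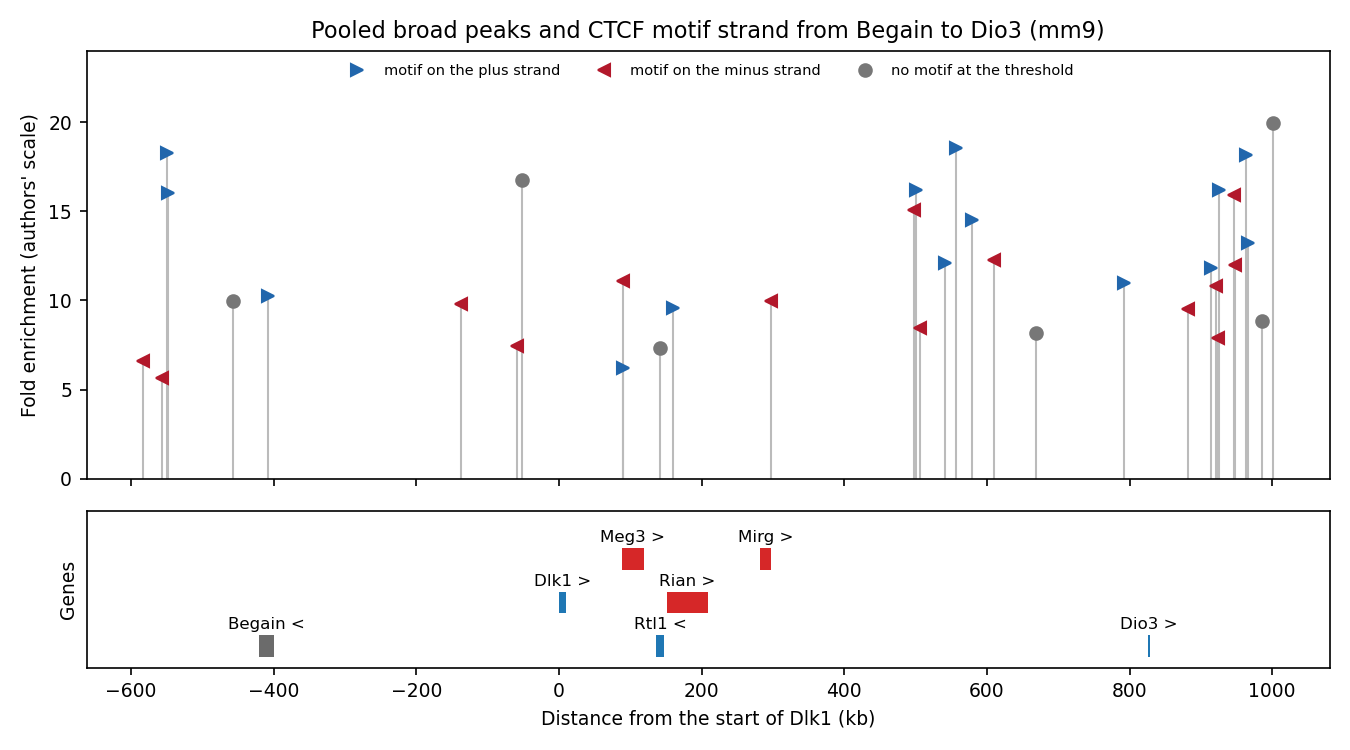
Pooled mm9 peaks are drawn by distance from the start of Dlk1 in kb and by fold enrichment on the authors' scale, with right-pointing blue triangles for a motif on the plus strand, left-pointing red triangles for the minus strand and grey circles for peaks with no match at the threshold. Gene colours are blue for paternally expressed coding genes, red for maternally expressed noncoding genes and grey for Begain. The Meg3 sites, of 6.19-fold and 11.11-fold, point towards each other.

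The interval between Dlk1 and Meg3 also held motif matches, 13 at the same threshold on mm9, of 13.1 to 16.7 bits, and none was in a pooled peak. On chromosome 12 as a whole, 16.6% of 9746 sites were in a peak, and in the window 32 of 160 were, so most sites lack a peak everywhere and 0 of 13 is close to these shares. All but 1 of the 13 lay on the minus strand. No strand share over the chromosome is set beside this count, so it is a description only. From the start of Dlk1 to the end of Mirg, 3 of 29 sites were in a peak, and these were the Meg3 pair and the Rian site.

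Some of the sites between Mirg and Dio3 resembled each other beyond the motif. The comparison site was the one of highest mm9 fold enrichment there, 18.57, which is not the site of highest mm10 signal. Of the 9 motif-bearing mm9 peaks, 6 shared with it at least 14 of the 20 bases that follow the site. It is 1 of the 6 and matches itself by construction. The rest of the 9 shared 4 to 6 bases. The comparison site and the minimum of 14 were chosen after the sequences were seen, so the count is a description. Elsewhere in the window 1 more site reached it, the one in Wars, and on even chromosomes and X 9.95% of motif-bearing peaks did. Just below the minimum, 2 sites after Dio3 shared 13 and another shared 12. Repeat annotation was not used here. The 6 sites follow, with the motif in capitals, each 5′ to 3′ on the strand of its site (mm9 reference). Sites A, B, C, D and F are on the plus strand, at chr12:111191269-111191369, chr12:111231768-111231868, chr12:111247492-111247592, chr12:111269673-111269773 and chr12:111483828-111483928. Site E is on the minus strand at chr12:111301470-111301570, and site C is the one the others were compared with.
Site A: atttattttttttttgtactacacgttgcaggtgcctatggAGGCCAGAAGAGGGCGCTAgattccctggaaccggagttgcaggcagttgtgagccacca
Site B: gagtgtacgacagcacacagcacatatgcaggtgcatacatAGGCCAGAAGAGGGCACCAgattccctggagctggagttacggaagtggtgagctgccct
Site C: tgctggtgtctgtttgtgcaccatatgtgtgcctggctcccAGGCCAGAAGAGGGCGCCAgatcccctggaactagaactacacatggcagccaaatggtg
Site D: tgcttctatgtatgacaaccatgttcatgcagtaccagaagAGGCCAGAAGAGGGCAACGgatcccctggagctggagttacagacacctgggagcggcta
Site E: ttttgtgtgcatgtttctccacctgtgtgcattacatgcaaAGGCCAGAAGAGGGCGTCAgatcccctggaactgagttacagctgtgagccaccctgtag
Site F: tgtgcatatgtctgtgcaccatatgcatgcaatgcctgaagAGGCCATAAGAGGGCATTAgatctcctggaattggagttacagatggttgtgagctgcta

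The motif score had a median of 20.2 bits over the 9 motif-bearing peaks between Mirg and Dio3. It was 16.4 bits over the 7 before Dlk1, 15.8 bits over the 3 from the start of Dlk1 to the end of Mirg and 17.9 bits over the 9 after Dio3. The minimum of 14 bases was reached by 1 of the 7, none of the 3 and none of the 9, and with so few sites these counts are near the background share. The sites after Dio3 with 13 or 12 bases alike are left out of this count. Bases were compared position by position with no gaps allowed. The count therefore does not show that the likeness was absent after Dio3.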

How the data were processed

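CTCF ChIP-seq of 2 biological replicates was analysed from the deposited peak lists. Per the file descriptions, the mm10 lists are peaks and background made for IDR, a test of reproducibility, from filtered alignments and a control, for each replicate and pooled, with 300000 entries each. Their signal is the authors' own, with no stated scale, and the deposited −log10 q values were not tested. The authors' conservative and optimal IDR sets carry that signal and an integer score deposited with them. The mm9 broad peaks have the authors' fold enrichment, a ratio, and a deposited −log10 p. The sources used here do not name the peak caller, aligner or IDR threshold. Depth is unknown, so intervals cover counting error only (exact, Clopper-Pearson).

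The members and lists were chosen with earlier results of these data known. Summits were matched within 100 bp. Starts came from RefSeq (GRCm38.p6) for 6 members; for Rtl1 the gene's end was used, with its strand from GENCODE vM1. The 19-bp motif was learned by expectation maximisation on the 5000 strongest mm9 peaks of odd chromosomes; chromosome 12 was held out. Its threshold is the score that 1% of flanking windows reach. Both strands were scanned, overlapping matches counted once. The matrix and matching steps were tested on simulated data. Printed in full were the 10 strongest peaks, those from Dlk1 to Mirg and the nearest on each side of every member, 20 in all; the other 19 had signals of 12.3 to 100.9. No test between groups exists. Alternatives covered peak set, flank, match distance, scaling, start distance, motif settings and leaving out each replicate. Python 3.11.15, numpy 2.4.6, scipy 1.17.1, pandas 2.3.3 and pysam 0.24.0 were used.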

Additional observations from a re-analysis of the deposited data

How the results depend on the processing

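Of the alternative values for the main results, 25 stayed within the set limits and 12 moved. Some of the 25 had no room to move. A count of 0 stays 0 under a shorter start distance or a higher signal limit. The single-replicate ratios of median signal were judged by the SD of those same values. The share of matched domain peaks higher in replicate 2, 74.3%, was 51.4% with no scaling, an alternative added after seeing the data. The window's 39 peaks became 23 with 50 kb flanks, 21 with none and 17 when limited to signals at or above the set median, each a smaller selection by construction. Using a single replicate's list gave 42 to 44 peaks in the window, 0 to 1 peaks between Dlk1 and Meg3, where the 1 came from replicate 2's list (without replicate 1), and 4 to 5 entries in that interval in place of the pooled 10. It gave a ratio of the domain's median signal to that of the set of 0.768 to 1.08 (0.935 pooled), 0 to 0 members with a peak at a start, and a motif share of 48.6% to 65.6%. Members with a peak near a start numbered 1 within 2000 bp and 1 within 5000 bp. The motif share was 17.6% with the score reached by 0.1% of flanking windows as threshold, 79.4% within 100 bp of the midpoint and 82.4% in the whole peak. The single-replicate values of the named peaks lie within 1 SD of their mean by construction, with 2 replicates. No paired analysis was possible because the series has 1 group.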
